A study of Mus musculus with 6 samples.

Results

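The genes of the translation initiation factors were examined in progenitor cells of mouse bone marrow, sorted on GFP made from the Hes1 locus. Members were all genes whose symbol in the platform annotation starts with Eif and a digit, taken from probe sets that the annotation assigns to 1 gene. This gave 47 genes with 133 probe sets, out of 18193 genes and 45037 probe sets. For each gene the probe set with the highest mean across all 6 arrays was taken, and 37 of the 47 genes had more than 1 probe set. Another 6 probe sets whose annotation lists an Eif gene together with other genes were left out.

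The 2 groups were GFP-positive and GFP-negative cells, with 3 Affymetrix arrays each. All cells were lineage-negative, c-Kit-positive and Sca-1-negative marrow cells of male mice aged 6 weeks that carried 1 Hes1-GFP allele and 1 wild-type allele. Green fluorescence in these mice reports on Hes1, a repressor gene that Notch signalling can switch on. The arrays are called P1 to P3 for GFP-positive and N1 to N3 for GFP-negative cells, by replicate number. Nothing in the labels ties the arrays of a group to separate animals. The p-values therefore reflect the spread among these 6 arrays alone, and that spread may be technical.

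Translation initiation brings the ribosome and the first transfer RNA to the start codon of a messenger RNA. eIF2 delivers the initiator transfer RNA, eIF2B recharges eIF2 with GTP, and eIF2 that has been phosphorylated by its kinases inhibits eIF2B. The eIF4 group recognises the cap of the messenger and unwinds it, eIF4E-binding proteins keep the cap factor from its partner eIF4G, and eIF3 holds the small ribosomal subunit ready. In red cell precursors this step is coupled to heme supply through the kinase encoded by Eif2ak1.

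Values are log2 of the deposited intensity, and a difference is GFP-positive minus GFP-negative on that scale. A gene was called where limma's moderated test gave a Benjamini-Hochberg adjusted p under 0.05 over all 45037 probe sets. Median intensity lay between 59.9 and 62.1 in GFP-positive arrays and between 63.6 and 64.8 in GFP-negative arrays. Hes1, whose reporter defined the sort, lay between 7.12 and 7.20 in GFP-positive arrays and between 5.74 and 6.01 in GFP-negative arrays. Fewer cells of a type and less RNA per cell cannot be told apart in such bulk samples.

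Cell type markers moved with the groups. Of 6 measured erythroid markers 4 were called higher and 0 lower, and their summed signal, as log2, was 14.47 to 14.63 in GFP-positive arrays against 13.79 to 13.88 in GFP-negative arrays. All 7 measured granulocyte and monocyte markers were called lower, with 14.61 to 14.92 in GFP-positive arrays against 15.72 to 15.81 in GFP-negative arrays. The late erythroid gene Hba-a1, read here by 1 probe set, was dim in every array, between 3.74 and 4.26. Alas2, another of the erythroid markers, lay between 10.18 and 10.56 and was not called. Of 6 B and plasma cell markers 0 were called higher and 2 lower, with 9.57 to 10.46 in GFP-positive arrays against 11.28 to 11.71 in GFP-negative arrays. The 2 lower were Ighm (3.90-fold) and Cd79b (3.60-fold), the brightest of the 6. Cd79a (0.55), Ebf1 (0.57) and Pax5 (0.10) lay above 0 and Jchain lay at -0.28, and none of these was called. Of 6 T and NK cell markers 2 were called higher and 1 lower (11.72 to 12.25 in GFP-positive against 12.81 to 12.90 in GFP-negative arrays). The 2 higher were Gzmb (15.9-fold, means 9.42 against 5.42) and Gzma (8.17-fold). The 1 lower was Nkg7 (2.24-fold), the brightest of the 6, which weighs most in the sum. Of 4 megakaryocyte markers 1 was higher (12.34 to 12.55 in GFP-positive against 11.88 to 12.20 in GFP-negative arrays). Of 4 stromal and endothelial markers 1 was lower (7.94 to 8.80 in GFP-positive against 8.59 to 8.75 in GFP-negative arrays). The 1 lower was Pecam1 (3.35-fold). The others lay above 0 and were not called: Col1a1 (1.90, limma adjusted p = 0.0823), Cxcl12 (1.41, 0.117) and Cdh5 (0.22, 0.393). Of 3 markers of c-Kit progenitors 1 was lower (13.88 to 14 in GFP-positive against 14.13 to 14.39 in GFP-negative arrays). The 1 lower was Cd34 (2.58-fold), while Kit (-0.25) and Myb (-0.07) were not called. Jchain, which joins secreted immunoglobulins, stood at 8.65 in P1 and at 8.85 in N3, and between 3.64 and 4.08 in the other 4 arrays. The immunoglobulin gene Ighm did not single out these arrays, with 7.69 to 8.35 in GFP-positive and 9.79 to 10.11 in GFP-negative arrays. The B cell gene Ebf1 did stand out in N3, at 8.72 against 5.68 in N1 and 5.43 in N2. In GFP-positive arrays Ebf1 lay between 6.70 and 7.55, with P1 at 7.30. Because of the Jchain signal, results are also given without P1 and N3. The part of cell composition in the differences below was not tested.

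Among the 47 initiation factor genes, most differences were small. Limma called 5 higher (10.6%) and 1 lower (2.13%), against 8.15% higher and 9.92% lower among all genes (18.1% in either direction). Of the 133 probe sets of these genes 10 were higher and 2 lower (7.52% and 1.5%), against 6.35% and 7.66% of all probe sets. The share called higher was thus near the background. The median difference was 0.09, with 37 of 47 above 0, against 0.11 over all genes, of which 64.6% were above 0. The median absolute difference was 0.16 in the members and 0.24 in all genes. A difference of at least 2-fold was seen in 1 member (2.13%), against 8.96% of all genes. All 3 GFP-positive arrays lay above the 3 GFP-negative ones for 18 members and below them for 3 members, while these counts were 28.9% and 16.7% of all genes. The representative probe sets of 46 members fell in the brighter 50% of the table, and of the 10723 genes that did so, 11.2% were called higher and 15.4% lower. An unadjusted limma p under 0.05 was seen in 12 members (25.5%), against 37.1% of all genes and 46.2% of those 10723.

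The count of 5 depended on the arrays used. It was 4 without P1, 2 without N1, and 1 without N2, N3, P2 or P3. The share of all genes called higher in these fits ran from 3.37% without N3 to 6.23% without N1. Without both arrays with Jchain signal limma called 0 members higher, although 5 had an unadjusted p under 0.05, against 2.08% of all genes called higher in that fit. The lower count was 1 in every one of these fits, and it was Eif4e3 each time. With array medians subtracted 8 members were higher and 1 lower, against 14.6% and 9.41% of all genes, and 60.8% of all gene calls were then higher against 45.1% without that step.

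**Figure D1:**
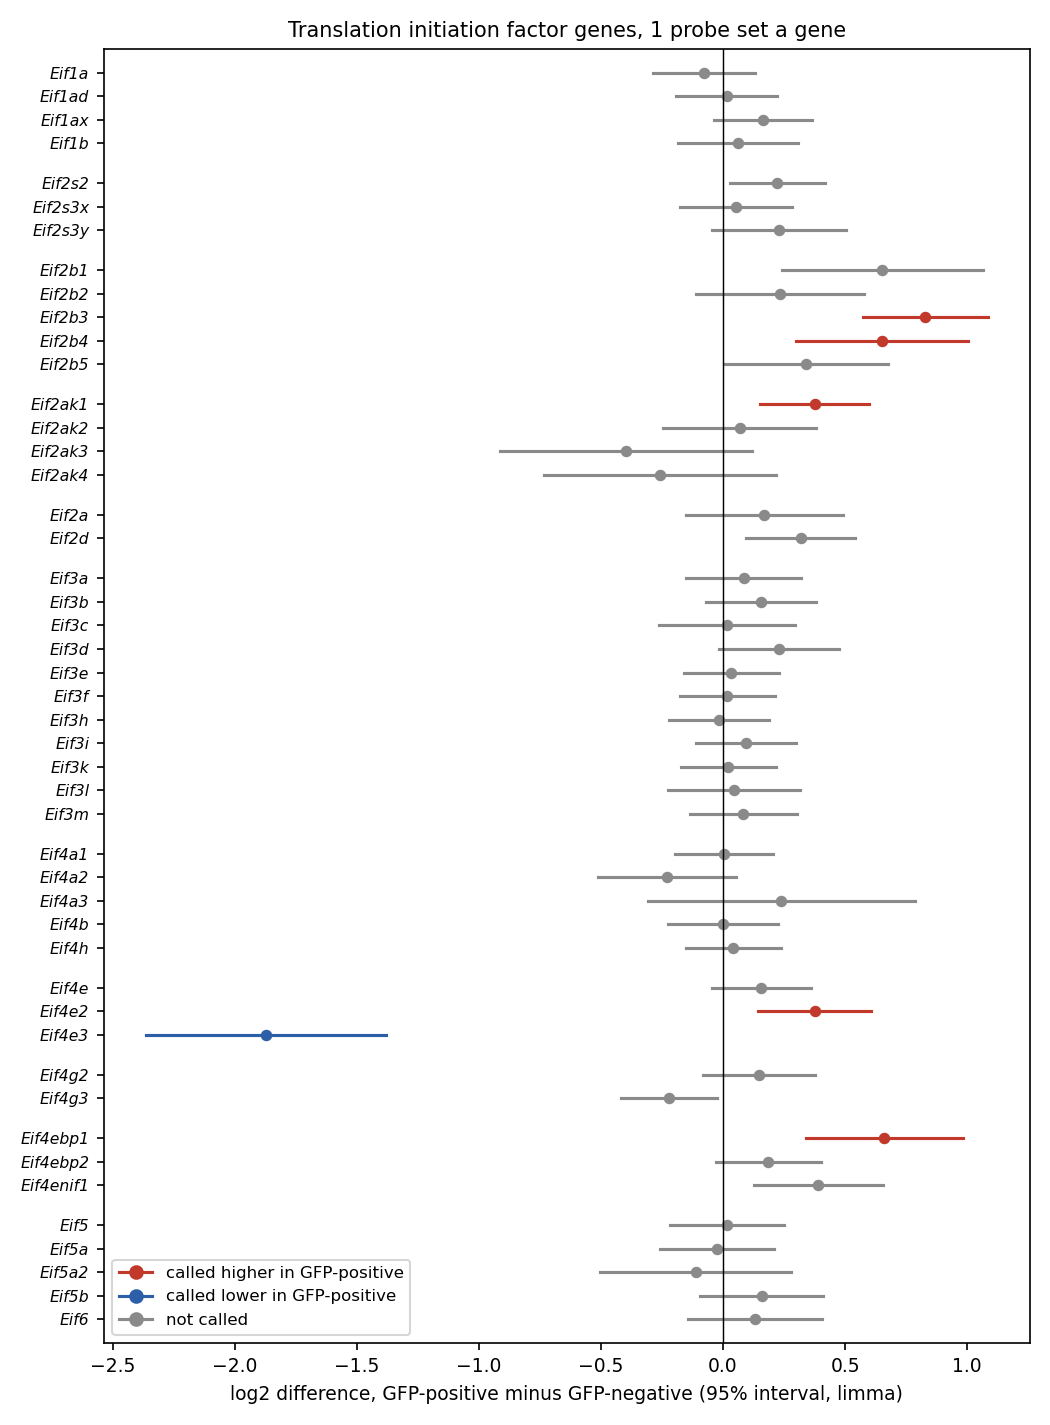
Log2 difference of each of the 47 genes, 1 probe set a gene, with limma's 95% interval, in blocks by role from eIF1 at the top to eIF5 and eIF6 at the bottom. Most intervals include 0, Eif4e3 stands alone at -1.87, and Eif2b3 at 0.83 is the highest value.

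**Figure D2:**
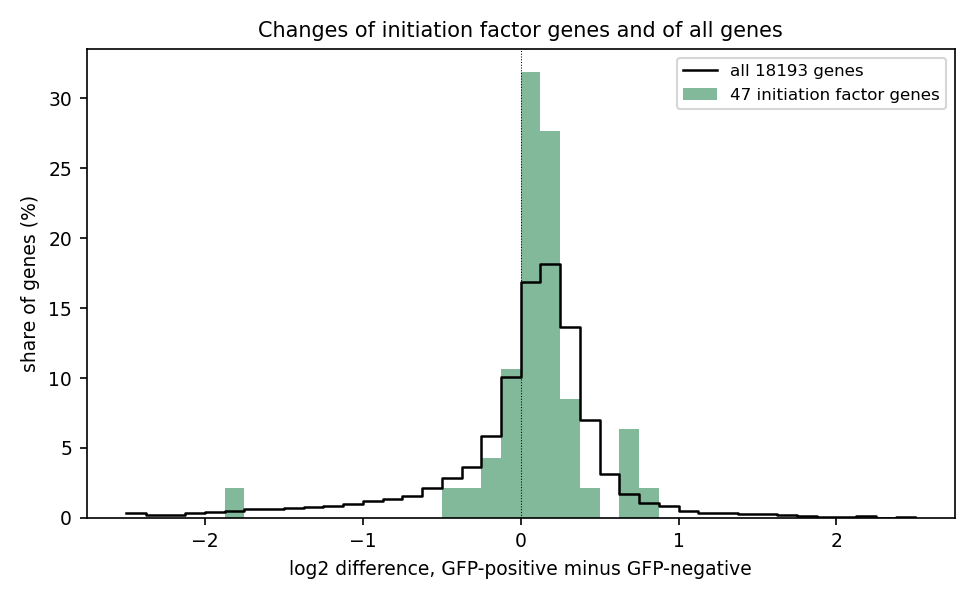
Share of genes in bins of the log2 difference for the 47 initiation factor genes (bars) and all 18193 genes (line), with values past the ends of the axis counted in the end bins. The members crowd just above 0, and the median absolute difference was 0.16 for the members and 0.24 for all genes.

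The clearest difference lay among the cap-binding proteins. Eif4e3, a divergent member of the eIF4E family, was lower in GFP-positive cells by 3.66-fold (95% interval 2.60 to 5.15; adjusted p = 0.00298, limma). Its brighter probe set gave 8.77, 8.10 and 8.17 in GFP-positive arrays, against 10.43, 10.14 and 10.09 in GFP-negative arrays. Every GFP-positive array lay more than 1 log2 unit below every GFP-negative array. The second probe set of the gene gave 6.75, 7.19 and 6.05 in GFP-positive arrays, against 8.18, 8.49 and 8.12 in GFP-negative arrays, a 3.03-fold difference (adjusted p = 0.0162). The call on Eif4e3 held without any 1 array (adjusted p from 0.00419 to 0.0145) and without both arrays with Jchain signal (difference -2.15, adjusted p = 0.0233).

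The differences of the remaining cap-binding genes lay above 0. Eif4e, the general cap-binding factor, had 12.64, 12.74 and 12.72 in GFP-positive arrays, against 12.54, 12.56 and 12.53 in GFP-negative arrays. Its groups did not overlap, but the difference of 0.16 was not called (95% interval -0.04 to 0.36; adjusted p = 0.252), and 0 of its 4 probe sets passed. The interval of Eif4e and that of Eif4e3, -2.36 to -1.38, did not meet.

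Eif4e2 encodes a cap-binding protein that takes part in translational repression. It stood at 12.78, 12.65 and 12.77 in GFP-positive arrays, against 12.45, 12.28 and 12.34 in GFP-negative arrays, 1.30-fold higher at the edge of the threshold (adjusted p = 0.0497). A second probe set rose alike (0.40, adjusted p = 0.0490), while the remaining 3 of its 5 probe sets lay between -0.04 and 0.02. The call did not survive dropping any 1 of the 6 arrays (adjusted p from 0.0613 without N1 to 0.150 without N2) or both arrays with Jchain signal (0.227). Averaged over its 5 probe sets, the gene had a difference of 0.15 (adjusted p = 0.230), and repeated quantile normalization also ended the call (0.0534).

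**Figure D3:**
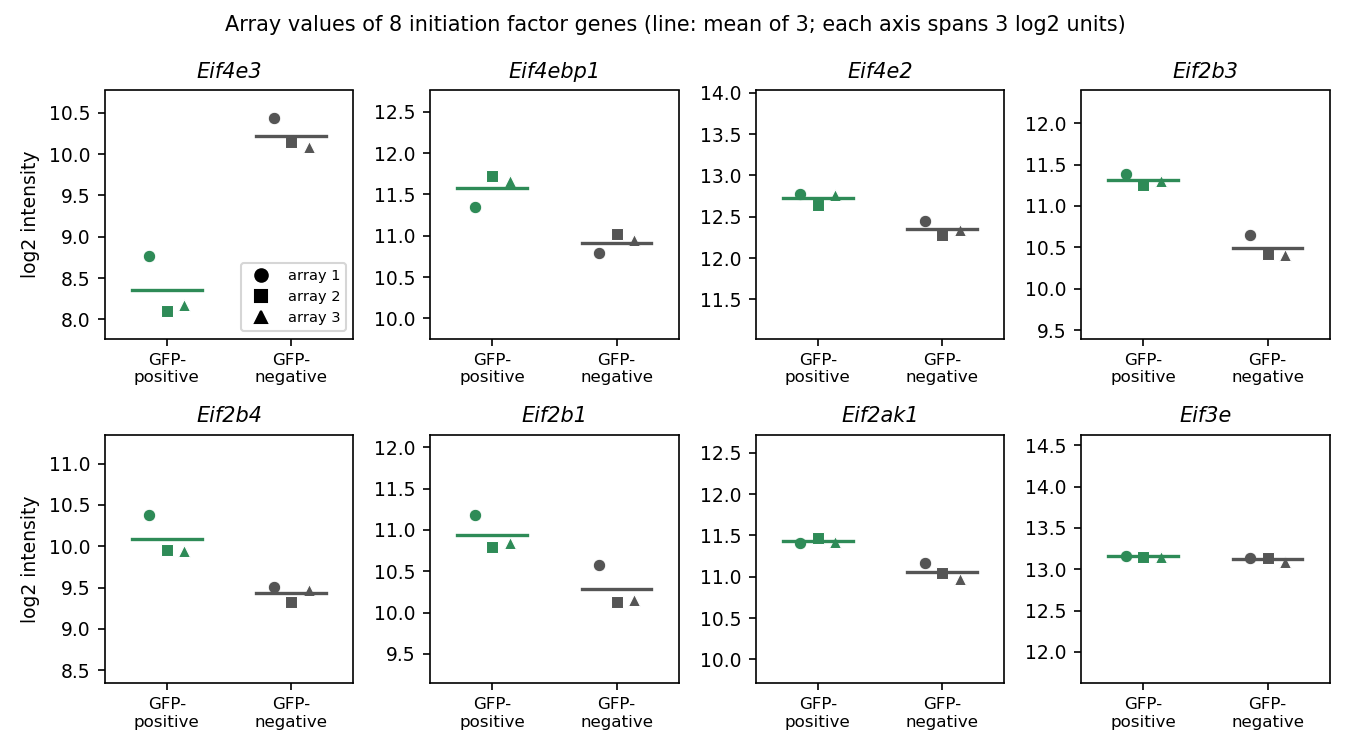
Log2 intensity in each of the 6 arrays for 8 genes, GFP-positive on the left and GFP-negative on the right of each panel, with a line at the mean of 3 arrays. Each vertical axis spans 3 log2 units around its own centre, so gaps between groups can be compared across panels. Eif4e3 shows the widest gap and Eif3e, with means of 13.15 in GFP-positive and 13.12 in GFP-negative arrays, the narrowest.

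Of the proteins that bind eIF4E and hold back cap-dependent initiation, Eif4ebp1 was higher. This target of the mTOR kinase had 11.35, 11.73 and 11.66 in GFP-positive arrays, against 10.79, 11.02 and 10.95 in GFP-negative arrays. The groups did not overlap and the rise was 1.58-fold (95% interval 1.26 to 1.98; adjusted p = 0.0238). The suffix of that probe set marks possible cross-hybridisation, but a probe set without that mark gave the same 1.58-fold rise (adjusted p = 0.0133). A dim further probe set showed a difference of 0.02 (adjusted p = 0.950).

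The call on Eif4ebp1 stood without P1 (adjusted p = 0.0162). It was lost without N1 (0.0638), N2 (0.0588), N3 (0.0751), P2 (0.0760) or P3 (0.0764), and without both arrays with Jchain signal (difference 0.79, adjusted p = 0.0584). Its paralog Eif4ebp2 was not called on its brightest probe set (0.19, 95% interval -0.03 to 0.40). All 5 probe sets of Eif4ebp2 lay above 0 and 1 was called higher, at 0.40 (adjusted p = 0.0479). Eif4enif1, which carries eIF4E into the nucleus and to RNA granules, had 9.96, 10.24 and 10.17 in GFP-positive arrays, against 9.72, 9.67 and 9.81 in GFP-negative arrays. Its difference of 0.39 was not called (adjusted p = 0.0635), although it passed without P1 (0.0420).

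Of the eIF4G family 2 genes were members and 0 of them were called, with the main scaffold gene Eif4g1 not analysed here. Eif4g3, a paralog of the main eIF4G scaffold, had a difference of -0.22 (95% interval -0.42 to -0.02; adjusted p = 0.124). All its GFP-positive arrays lay below all GFP-negative ones, as in 16.7% of all genes. Of its 4 probe sets, however, 2 lay above 0. Eif4g2, whose product lacks the eIF4E-binding region, had 0.15 (adjusted p = 0.335), and only 2 of its 5 probe sets lay above 0. Of the helicases and their cofactors Eif4a1, Eif4a2, Eif4a3, Eif4b and Eif4h, 0 of 5 were called. Of these 5 genes 0 had an unadjusted p under 0.05 in limma (37.1% of all genes did). Their differences ran from -0.23 for Eif4a2 to 0.24 for Eif4a3, a helicase of the exon junction complex whose probe set was dim. A brighter probe set that lists Eif4a3 beside another gene, and so was left out, had means of 12.41 in GFP-positive and 12.38 in GFP-negative arrays, a difference of 0.03 (adjusted p = 0.808).

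Of the 5 genes of eIF2B, the exchange factor of eIF2, limma called 2 higher and 0 lower, against 8.15% and 9.92% of all genes. All 5 differences were above 0 (64.6% of all genes were), and the median was 0.65 against 0.11 over all genes. Eif2b3, the gamma subunit, had 11.39, 11.26 and 11.30 in GFP-positive arrays, against 10.65, 10.42 and 10.40 in GFP-negative arrays. Its rise was 1.78-fold (95% interval 1.49 to 2.12; adjusted p = 0.00508), the largest among the members. Eif2b3, Eif2b4 and Eif2b1 each had 1 probe set, so no other probe set was there to compare. The call held without any 1 array (adjusted p from 0.00947 to 0.0260) and was lost without both arrays with Jchain signal (difference 0.75, adjusted p = 0.0641).

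Eif2b4, the delta subunit, had 10.37, 9.95 and 9.94 in GFP-positive arrays, against 9.51, 9.33 and 9.47 in GFP-negative arrays. It was 1.57-fold higher (95% interval 1.23 to 2.00; adjusted p = 0.0333) with groups that did not overlap. That call stood without P1 (0.0409). It was lost without N1 (0.0648), N2 (0.107), N3 (0.0938), P2 (0.0613) or P3 (0.0544), and without both arrays with Jchain signal (0.110).

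Eif2b1, the alpha subunit, gave a difference of the same size that missed the threshold. It had 11.18, 10.79 and 10.84 in GFP-positive arrays, against 10.57, 10.12 and 10.15 in GFP-negative arrays, a difference of 0.65 (95% interval 0.24 to 1.06; adjusted p = 0.0527). Array 1 was the highest of its group on both sides. Without N1 the gene was called (difference 0.80, adjusted p = 0.0334), and without both arrays with Jchain signal the adjusted p was 0.244. The catalytic epsilon subunit Eif2b5 (0.34, adjusted p = 0.155) and the beta subunit Eif2b2 (0.23, adjusted p = 0.308) were not called, and their groups overlapped. The intervals of the 5 subunits overlapped one another.

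To show what lies at the starts of these genes, promoter windows of 250 bases before and 50 bases from the gene start on were read from RefSeq (build GRCm38.p6). Of the 47 members 38 matched the table. Windows of Eif2b1 and Eif2b4 are given because the genes had near-equal differences, and those of Eif2ak1 and Eif4e2 because they are the remaining genes called higher that have a window. Capitals mark 3 motifs searched on both strands, none of which holds another. The E-box was spelled CACGTG. The GATA-type motif was spelled GATAA. The ETS-type motif was spelled CCGGAAG.
Eif2b4: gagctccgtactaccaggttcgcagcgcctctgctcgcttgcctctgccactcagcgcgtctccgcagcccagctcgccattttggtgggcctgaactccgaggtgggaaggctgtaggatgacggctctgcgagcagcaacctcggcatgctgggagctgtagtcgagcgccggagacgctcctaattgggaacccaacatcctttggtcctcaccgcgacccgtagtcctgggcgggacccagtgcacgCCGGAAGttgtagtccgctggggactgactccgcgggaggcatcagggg
Eif2b1: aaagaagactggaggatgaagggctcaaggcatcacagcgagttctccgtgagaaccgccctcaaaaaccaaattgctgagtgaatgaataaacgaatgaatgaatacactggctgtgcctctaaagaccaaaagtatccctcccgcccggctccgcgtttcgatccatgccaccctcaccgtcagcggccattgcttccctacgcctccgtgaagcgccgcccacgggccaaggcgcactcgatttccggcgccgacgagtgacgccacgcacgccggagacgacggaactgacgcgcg
Eif2ak1: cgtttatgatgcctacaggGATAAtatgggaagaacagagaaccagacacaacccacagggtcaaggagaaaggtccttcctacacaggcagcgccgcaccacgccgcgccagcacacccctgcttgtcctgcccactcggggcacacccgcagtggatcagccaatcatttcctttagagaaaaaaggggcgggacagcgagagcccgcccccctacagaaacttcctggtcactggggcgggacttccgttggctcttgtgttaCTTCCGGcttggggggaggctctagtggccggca
Eif4e2: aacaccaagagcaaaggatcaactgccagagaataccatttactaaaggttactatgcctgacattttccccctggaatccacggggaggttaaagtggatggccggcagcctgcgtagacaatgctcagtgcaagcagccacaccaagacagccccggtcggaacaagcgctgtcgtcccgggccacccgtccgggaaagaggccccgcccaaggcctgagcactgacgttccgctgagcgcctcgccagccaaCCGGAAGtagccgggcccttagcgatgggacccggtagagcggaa
The window of Eif2b4 is chr5:31193090-31193389 on the minus strand, and that of Eif2b1 is chr5:124579082-124579381 on the minus strand. The window of Eif2ak1 is chr5:143817542-143817841 on the plus strand. For Eif4e2 the first of 3 overlapping windows is shown, chr1:87213661-87213960 on the plus strand.

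The ETS-type letters lie 1 base past the first base of the Eif2b4 gene, and 5 bases past it in the Eif4e2 window shown. In the other Eif4e2 windows, which start further on, the same letters lie 2 bases past and 23 bases before the start. On the opposite strand they lie 16 bases past it in Eif2ak1, whose window also holds the GATA-type letters 231 bases before the start. The window of Eif2b1 holds none of the 3 motifs. Across the 38 matched members 15 genes (39.5%) held the ETS-type letters in at least 1 window, against 12.9% of 17492 protein-coding genes in the table. The E-box was found in 9 (23.7%) against 8.91%, and the GATA-type letters in 4 (10.5%) against 25.6%. Members have up to 6 windows a gene, and these are letter matches, not binding sites. The ETS-type letters also stood in members that were not called, such as Eif2b2 and Eif3d.

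Of the 4 eIF2 kinase genes limma called 1 higher and 0 lower, against 8.15% and 9.92% of all genes. Eif2ak1, the heme-regulated kinase, had 11.41, 11.47 and 11.42 in GFP-positive arrays, against 11.16, 11.05 and 10.97 in GFP-negative arrays. It was 1.30-fold higher (95% interval 1.11 to 1.51; adjusted p = 0.0449), and the groups did not overlap. Only the brightest of its 5 probe sets was called, and 4 of the 5 lay above 0. The call did not survive dropping any 1 of the 6 arrays (adjusted p from 0.0508 without N1 to 0.144 without N3) or both arrays with Jchain signal (0.198). It was also lost with the mean of all probe sets (0.0780) and with the probe set of highest variance (0.159).

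Eif2ak3, which senses unfolded protein in the endoplasmic reticulum, had a difference of -0.40 (95% interval -0.91 to 0.12). Eif2ak4, which senses uncharged transfer RNA, had -0.26 (95% interval -0.73 to 0.22). Eif2ak2, activated by double-stranded RNA, had 0.07 (95% interval -0.25 to 0.38). None of these 3 was called by limma, and 0 had an unadjusted p under 0.05 (37.1% of all genes did). For Eif2ak3 a dimmer probe set pointed the other way (0.35, adjusted p = 0.122).

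Of eIF2 itself, the substrate of these kinases, the beta and gamma subunit genes were members, and the gene of the alpha subunit, which carries the phosphorylation site, was not analysed here. Eif2s2, the beta subunit, had 13.15, 13.14 and 13.14 in GFP-positive arrays, against 12.91, 12.94 and 12.91 in GFP-negative arrays. The groups stood apart, yet the difference of 0.22 was not called (95% interval 0.03 to 0.42; adjusted p = 0.119). Of its 6 probe sets 5 lay between 0.22 and 0.51, a dim one lay at -0.55, and 0 were called. For the X-linked gamma subunit Eif2s3x, the probe sets disagreed. The brightest, marked for possible cross-hybridisation, gave 0.05 (adjusted p = 0.740), and the dimmest gave 10.36, 10.34 and 10.29 in GFP-positive arrays, against 9.96, 9.64 and 9.78 in GFP-negative arrays, which was called higher (0.54, adjusted p = 0.0247). The Y-linked copy Eif2s3y had 0.23 (adjusted p = 0.220) in these male mice. Of the factors that can deliver transfer RNA without eIF2, Eif2d had 0.32 (adjusted p = 0.0732), with 6 of 6 probe sets above 0 and 1 called higher. Eif2a had 0.17 (adjusted p = 0.426).

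**Figure D4:**
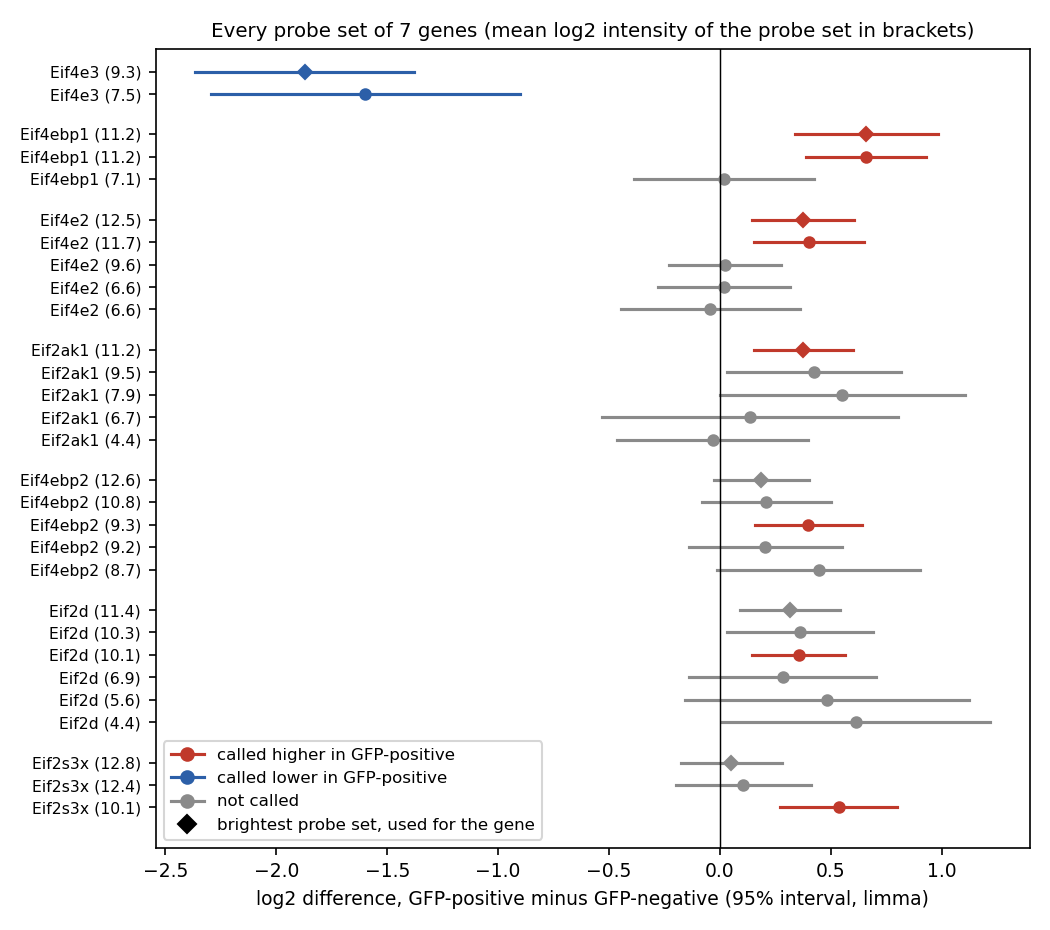
Log2 difference with limma's 95% interval for every probe set of 7 genes, brightest first within a gene, with the mean log2 intensity of the probe set in brackets. Both probe sets of Eif4e3 were called lower, whereas Eif4ebp1, Eif4e2, Eif2ak1, Eif4ebp2, Eif2d and Eif2s3x each had called and uncalled probe sets.

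The eIF3 complex is the largest group of members. Of its 11 subunits among the members 0 were called by limma and 0 had an unadjusted p under 0.05 (37.1% of all genes did). The differences ran from -0.02 for Eif3h to 0.23 for Eif3d, with a median of 0.05. On the brightest probe set of each, the 95% intervals of the 11 subunits reached from -0.26 to 0.47. A rise above 1.39-fold thus lay outside the interval of each of these probe sets. Eif3e had 13.16, 13.15 and 13.15 in GFP-positive arrays, against 13.14, 13.13 and 13.09 in GFP-negative arrays. Eif3d, which contacts the cap on some messengers, had 12.69, 12.55 and 12.54 in GFP-positive arrays, against 12.49, 12.29 and 12.31 in GFP-negative arrays (adjusted p = 0.184). With every probe set counted, 27 for the 11 subunits, 0 passed and 1 had an unadjusted limma p under 0.05, against 31.5% of all probe sets. The intervals of these 27 reached up to 0.57. Probe sets that list Eif3j1 and Eif3j2 together are not among them. Those had higher differences of 0.24, 0.32 and 0.44, with intervals up to 0.92, and none was called.

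The genes with Eif1, Eif5 and Eif6 symbols also had small differences. Among Eif1a, Eif1ax, Eif1b and Eif1ad 0 of 4 were called, and the differences ran from -0.08 for Eif1a to 0.16 for Eif1ax. Among Eif5, Eif5a, Eif5a2, Eif5b and Eif6 0 of 5 were called, with differences from -0.11 to 0.16. In both sets 0 had an unadjusted p under 0.05 in limma (37.1% of all genes did). Eif5b, the GTPase that joins the ribosomal subunits, had the highest value of the second set (0.16, 95% interval -0.09 to 0.41), and Eif5a2, a hypusine-bearing paralog of Eif5a, the lowest (95% interval -0.50 to 0.28).

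**Figure D5:**
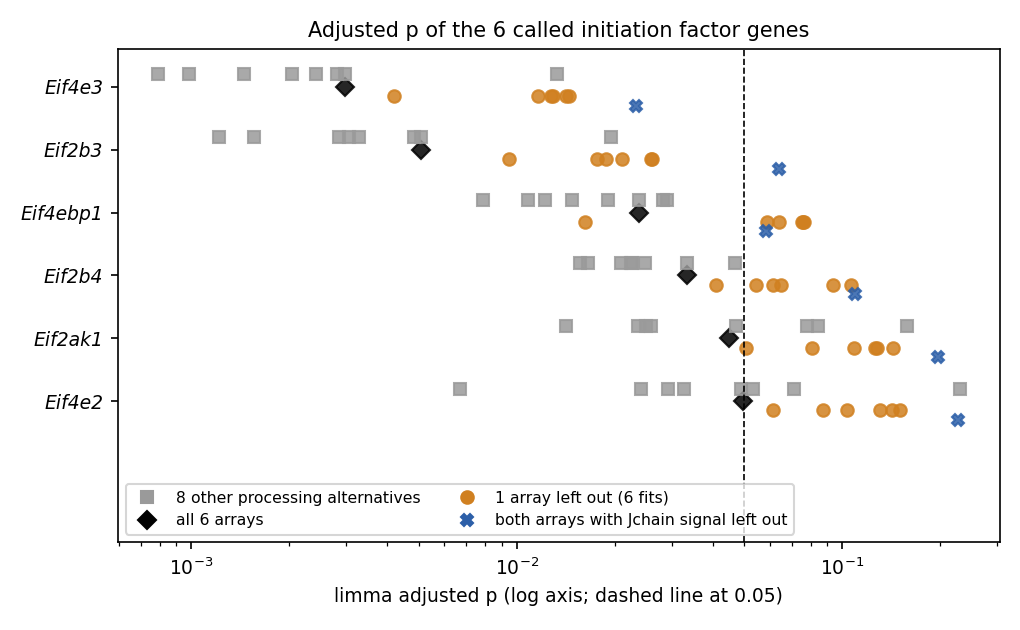
Limma adjusted p of the 6 called genes on a log axis, with all 6 arrays (diamonds), with 1 array left out (circles), without both arrays with Jchain signal (crosses) and under 8 other processing alternatives (squares). Eif4e3 stays left of the dashed line at 0.05 throughout, and Eif2b3 crosses it only without both arrays.

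Other genes of translation and its control were counted from 5 lists, to be read against the 8.15% of all genes called higher, the 9.92% called lower and the median of 0.11. Of 12 elongation and release factor genes 2 were called higher (16.7%) and 1 lower (8.33%), with a median difference of 0.08. Eef1e1, an auxiliary protein of the transfer RNA synthetase complex, was 1.64-fold higher (12.15 ± 0.12 in GFP-positive and 11.43 ± 0.06 in GFP-negative arrays, SD, n = 3 each; limma adjusted p = 0.00717). It kept its call without any 1 array (adjusted p up to 0.0340). Gspt2, a release factor GTPase, was 1.95-fold lower (6.31 ± 0.35 in GFP-positive and 7.27 ± 0.19 in GFP-negative arrays; limma adjusted p = 0.0258), a call lost without N1 (0.0687), N3 (0.0896), P1 (0.0615) or P2 (0.0826), with repeated quantile normalization (0.0603) and with the probe set of highest variance (0.0848). Hbs1l, a ribosome rescue factor, was 1.37-fold higher (adjusted p = 0.0382), and its call was lost without any 1 of the 6 arrays (0.0675 to 0.115), with the replicate number as a block (0.0585) and with the probe set of highest variance (0.0679).

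Of 17 genes of poly(A) binding and ribosome loading 1 was called higher (5.88%) and 0 lower, with a median of -0.05. Pabpc1, the main cytoplasmic poly(A)-binding protein (-0.13, adjusted p = 0.312), and Pdcd4, an inhibitor of eIF4A (-0.11, adjusted p = 0.485), were not called. The 1 called higher, named after its value was seen, was the poly(A)-binding protein gene Pabpc4 (0.56, adjusted p = 0.0226). Its call was lost without N2 (0.0805), N3 (0.0847), P1 (0.0588) or P2 (0.0772). Of 14 genes of mTOR and MNK signalling, which acts on Eif4ebp1 and eIF4E, limma called 0 in either direction. An unadjusted limma p under 0.05 was seen in 3 of these 14 (21.4%, against 37.1% of all genes). Their median was 0.10, with Mknk2, a kinase of eIF4E, at 0.16 (adjusted p = 0.270) and Ddit4, an inhibitor of mTOR, at -0.39 (adjusted p = 0.376).

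The integrated stress response runs downstream of eIF2 phosphorylation, and 2 of its 14 measured genes were called higher (14.3%, against 8.15% of all genes) and 0 lower (against 9.92%). The median was 0.17, against 0.11 over all genes. Asns, asparagine synthetase, had 12.55, 12.64 and 12.63 in GFP-positive arrays, against 11.52, 11.30 and 11.19 in GFP-negative arrays. It was 2.41-fold higher (adjusted p = 0.00169) and kept its call without any 1 array (up to 0.0107) and without both arrays with Jchain signal (0.0283). Sesn2, a stress-induced inhibitor of mTOR signalling, had 8.51, 8.20 and 8.46 in GFP-positive arrays, against 7.82, 7.23 and 7.30 in GFP-negative arrays. It was 1.91-fold higher (adjusted p = 0.0215), a call lost without N2 (0.0714), N3 (0.0788), P1 (0.0620) or P3 (0.0690). The response factor Atf4 had a difference of 0.22 and was not called (95% interval -0.02 to 0.46; adjusted p = 0.188).

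Of 4 genes for the polyamines and enzymes that place hypusine on Eif5a, 1 was called higher (against 8.15% of all genes). All 4 lay above 0 (median 0.36; 64.6% of all genes were above 0), and in all 4 the GFP-positive arrays lay above the GFP-negative ones (28.9% of all genes). Odc1, which starts polyamine synthesis, was 1.40-fold higher (12.54 ± 0.05 in GFP-positive and 12.06 ± 0.03 in GFP-negative arrays, SD, n = 3 each; limma adjusted p = 0.0142). The call was lost when N2 (0.0532), N3 (0.0607), P2 (0.0535) or P3 (0.0537) was dropped. Without both arrays with Jchain signal, Eef1e1 kept its call (0.0414), and Hbs1l (0.143), Gspt2 (0.157), Pabpc4 (0.159), Sesn2 (0.161) and Odc1 (0.0958) lost theirs. Srm, which makes spermidine, had 0.21 (adjusted p = 0.211).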

How the data were processed

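Gene expression was measured on 6 Affymetrix arrays. Per the labels, 5 ng of total RNA was amplified with a NuGEN Ovation kit. The deposited intensity values are on a linear scale and were made by the authors with RMA, per the submitters' processing notes. No version or setting of RMA, and no word on the return to linear values, was found in the labels or headers.

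Values were taken to log2 with a floor of 1 (0 values lay below it). Array control probe sets (64) were dropped. By the platform annotation 34945 probe sets have a single gene symbol, 932 have more than 1 and 9160 lack one. Of the first, 34741 matched RefSeq (GRCm38.p6) by gene ID.

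The comparison used limma 3.58.1 under R 4.3.3 (lmFit, eBayes, 2-sided, no covariate, Benjamini-Hochberg over 45037 probe sets; 2.38 prior and 6.38 total degrees of freedom). The number of arrays limits the precision. The procedure was run on simulated data with known changes, as a check on the size of the estimated change only. Summaries were made in pandas 2.3.3.

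Named genes were every called member, 1 or 2 uncalled members of largest change in each role, members whose probe sets differ in call, up to 3 called members of each list of other genes (or the 2 of highest mean where fewer than 2 were called) and Hes1. Atf4, Eif3e, Eif2ak2 and the genes named only at the end of a range were chosen after their values were seen. The members, the lists and the choice to leave out the 2 arrays with Jchain signal were made with earlier results of these data known. No list was tested as a set.

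Alternatives were array medians removed, a prior with an intensity trend, fitted robustly, a block for replicate number, repeated quantile normalization, the brighter 50% of probe sets, array weights, other probe sets for a gene, and leaving out each array or both arrays with Jchain signal.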

Additional observations from a re-analysis of the deposited data

How the results depend on the processing

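Over 15 alternatives, Eif4e3 was the 1 member called lower in every fit, and no called member changed sign. Of 704 single-gene values of members, 650 kept their side of the threshold, 33 lost a call and 21 gained one. The count of members called higher was 5 with all arrays, 8 with array medians subtracted, 8 with array weights, 8 with the brighter 50% of probe sets and 9 with an intensity trend and robust prior. The shares of all genes called higher in these fits were, in the same order, 8.15%, 14.6%, 11.5%, 15.1% and 9.38%. The member count ran from 1 to 4 with 1 array left out, where 3.37% to 6.23% of all genes were called higher. It was 0 without both arrays with Jchain signal (limma, 5 with an unadjusted p under 0.05), against 2.08% of all genes. The members gained in at least 2 of these settings were Eif2b1, Eif2d and Eif4enif1. Over all genes the higher count was 1482, 2657 with array medians subtracted, 2372 with the mean of all probe sets of a gene, 614 to 1134 with 1 array left out, and 379 without both arrays. The lower count was 1805, 1215 to 1604 with 1 array left out, and 929 without both arrays. With the replicate block 4 members were higher and 1 lower (1020 and 1523 of all genes): Eif2ak1 (adjusted p = 0.0842) and Eif4e2 (0.0712) were lost and Eif2b1 (0.0263) was gained. Of the other named genes Hbs1l (0.0585) was lost. Deviations of same-numbered arrays from their group means correlated at r = 0.0231, 0.0547 and 0.0191 over all probe sets, too weakly to treat the arrays as paired. Every array correlated best with its own number, a hint from the data and not the design. Cause was not tested for any of these changes, but fewer arrays leave fewer degrees of freedom. The dim probe set of Eif4a3 had a wide interval (-0.31 to 0.79), and the fit on the brighter 50% leaves it out.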

Other observations

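Array 1 was the highest of its group for 26 of 47 members among GFP-positive arrays and for 30 of 47 among GFP-negative arrays. Across the 47 members the deviations of the 2 arrays numbered 1 from their group means correlated at r = 0.625, against r = -0.118 for number 2 and r = 0.304 for number 3. Differently numbered pairs reached like values, from r = -0.642 (P3 and N1) to r = 0.528 (P3 and N2). The points share the arrays, so these values are a description.

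The probe sets that list an Eif gene beside other genes were not counted as members. None of the 6 was called by limma. Of these, 3 list a pair of eIF3 genes and had differences of 0.24, 0.32 and 0.44 (adjusted p = 0.123, 0.203 and 0.184).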
